A study of Rattus norvegicus with 6 samples.

Results

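INS-1 cells come from a rat insulinoma, keep insulin secretion and are widely used in place of pancreatic beta cells. The 39 genes described here encode chaperones, the translocation machinery and the unfolded protein response of the endoplasmic reticulum (ER). They were taken by symbol from the deposited table of 35362 gene rows, and 38 of them had a row. The S487D cells were INS-1 cells overexpressing a menin mutant in which serine is replaced by aspartate, an acidic residue often used to imitate a phosphorylated serine. The S487A cells, with which they were compared, overexpressed menin with alanine at that position, which cannot be phosphorylated. Both populations were made with retroviruses derived from pMX-puro-Flag-Menin and grown in the same medium, and each gave 3 sequenced libraries. The labels name no promoter for the transgene, do not say whether the populations are clonal or pooled, and do not say that libraries came from separate cultures. The p-values therefore measure the spread between these libraries, which may be technical, and the mutant cannot be told apart from the population that carries it. Cells without a transgene or with wild-type menin were not analysed here.

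Proteins bound for secretion, proinsulin among them, enter the ER through the Sec61 channel, lose their signal peptide, and are folded by the HSP70 chaperone BiP, by disulfide isomerases and by lectin chaperones. Proteins that fail to fold are drawn back to the cytosol and degraded. When unfolded protein accumulates, the sensors ATF6, IRE1 (Ern1) and PERK (Eif2ak3) set off the unfolded protein response, which raises chaperone transcription through ATF6 and spliced XBP1 and slows translation through PERK. Beta cells carry a heavy secretory load and are known to depend on this response.

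Reads assigned to listed genes numbered 9444801 to 10253573 per library in S487D and 10037113 to 10867549 in S487A. Levels are in RPKM, the authors' read density scaled to gene length and library size, as deposited. Menin mRNA itself (Men1) stood at 113, 103 and 119 RPKM in S487D, against 71.2, 76.7 and 75.0 RPKM in S487A (log2 change 0.58, SE 0.055, limma adjusted p = 2.89e-05, called under all 14 alternatives). All 8 beta cell markers were detected in both groups, but their summed level was 17601 to 18789 RPKM in S487D and 5309 to 5854 RPKM in S487A. The insulin gene Ins1 averaged 16700 ± 551 RPKM in S487D and 4683 ± 292 RPKM in S487A (log2 change 1.84). Ins2, Iapp, Mafa, Slc2a2 and Pdx1 also rose, by log2 changes of 1.65, 0.99, 1.89, 0.28 and 0.12, while Nkx6-1 and Neurod1 fell, with -1.03 and -0.14 (limma adjusted p at most 0.0299 for each of the 8). Of 26 markers of alpha, delta, PP, acinar, ductal, fibroblast, immune and endothelial cells, 25 stayed under 1 RPKM in every library and 12 were listed at 0. The exception was the proglucagon gene Gcg, an alpha cell marker, which averaged 819 ± 41.5 RPKM in S487D and 96.0 ± 6.6 RPKM in S487A (log2 change 3.08, adjusted p = 7.39e-10). Without Gcg the markers of other cells summed to 1.21 to 1.66 RPKM in S487D and 1.63 to 2.42 RPKM in S487A. Ribosomal RNA took 2.15 to 4.50% of reads in S487D and 0.93 to 2.49% in S487A, and the part of the markers and of ribosomal RNA in the results below was not tested.

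Most ER genes were modestly higher in S487D. Of 37 tested, 25 rose, 2 fell and 10 were not called (limma on log2(RPKM + 1), Benjamini-Hochberg adjusted p under 0.05 over all 12527 genes tested). Against these counts, 20.1% of all genes tested rose, 24.3% fell and 44.4% were called in either direction. Rises made up 45.3% of calls over all genes, or 58.9% had the libraries been centred on their medians and 55.4% had they been quantile normalized. The insulin genes and Gcg moved with the ER genes, with the values given above. The median log2 change, S487D minus S487A, was 0.22 over the ER genes and -0.01 over all genes. In 33 of the 37 the mean log2 level was higher in S487D, against 47.7% of all genes. The groups did not overlap in 32 members, 29 of them higher in S487D. Of all genes, 54.6% did not overlap, 25.0% with S487D higher and 29.5% with S487D lower. In bulk RNA, a change in each cell and a change in the mix of cells cannot be told apart. The changes were small, with 26 of the 27 called members under 1.5-fold. All 37 lay well above the filter of 1 RPKM in every library, from 4.66 RPKM for Dnajb9 to 709 RPKM for Calr. Derl3, a derlin of ER-associated degradation, was listed at 0 in all 6 libraries, in a row that overlaps another gene, and was not tested, and the expression of Derl2 was not analysed here.

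Together the 38 genes held 5062, 5008 and 5002 RPKM in the S487D libraries, against 4214, 4113 and 4295 RPKM in the S487A libraries. Every S487D library thus lay above every S487A library. They took 1.09 ± 0.01% of assigned reads in S487D and 0.93 ± 0.02% in S487A (SD, n = 3 each).

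**Figure D1:**
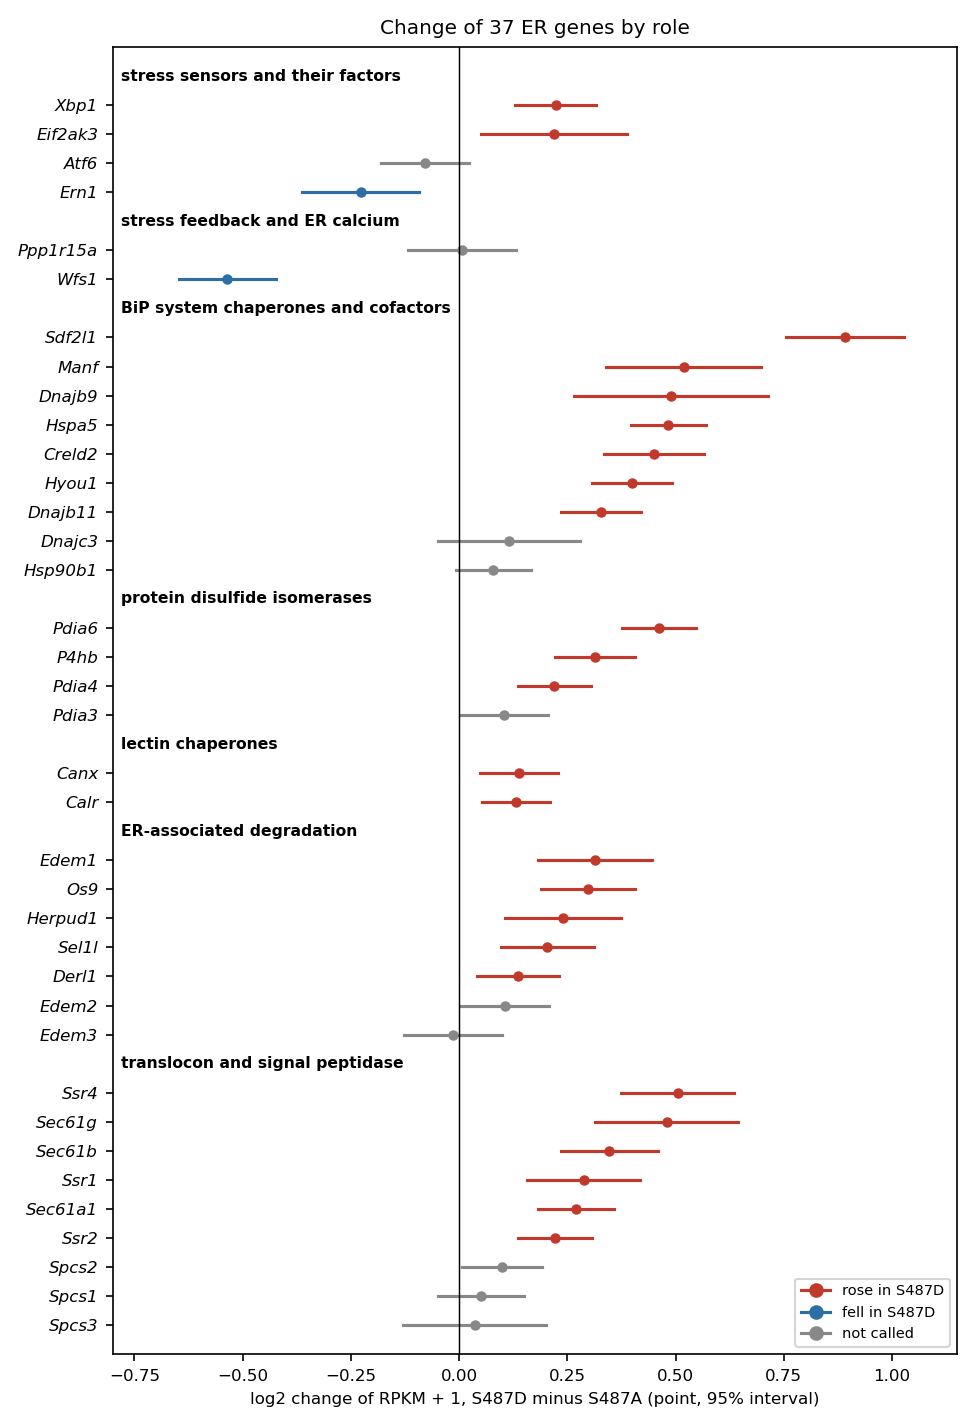
Log2 change of RPKM + 1, S487D minus S487A, for the 37 tested ER genes, grouped by role, with 95% intervals (not adjusted for the number of genes). Red genes rose, blue genes fell and grey genes were not called; Sdf2l1 at 0.89 is the highest and Wfs1 at -0.54 the lowest.

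Many of these genes share a promoter element known from mammalian cells to be bound by ATF6 together with the CCAAT-binding factor NF-Y. The ER stress response element (ERSE) reads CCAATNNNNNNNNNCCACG, and its shorter form ERSE-II reads ATTGGNCCACG. Exact matches to both were searched on both strands of RefSeq promoters (GRCr8), from 250 bases before to 50 bases after the annotated start. Sites that differ from the fixed letters were not counted. Promoters were matched for 31 members, Derl2 and Derl3 among them. An ERSE was found in 8 of them (25.8%) and an ERSE-II in 3 others (9.68%), so that 11 (35.5%) held one or the other. Of all 27457 promoters of that length, 0.0765% held an ERSE and 0.0546% an ERSE-II. Many members are textbook targets of these factors, so this share describes the gene list and not the libraries.

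The sites are shown because they link the genes that rose with some that were not called. Each is read 5′ to 3′ on the strand of the match, with the fixed letters in capitals, and the position is that of its first base relative to the start.
Hspa5 ERSE at -43: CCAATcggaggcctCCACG
Hsp90b1 ERSE at -176: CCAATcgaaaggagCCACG
Hsp90b1 ERSE at -72: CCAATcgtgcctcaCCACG
Creld2 ERSE at -145: CCAATtgaggctcgCCACG
Hyou1 ERSE-II at -188: ATTGGcCCACG
Hyou1 ERSE-II at -88: ATTGGgCCACG
Canx ERSE at -230: CCAATcatcacgctCCACG
Dnajb11 ERSE-II at -10: ATTGGcCCACG
Xbp1 ERSE at -65: CCAATcgcagacggCCACG
Dnajc3 ERSE at -133: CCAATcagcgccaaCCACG
Herpud1 ERSE-II at -124: ATTGGgCCACG
Calr ERSE at -232: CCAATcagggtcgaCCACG

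Of the 10 tested members with either element, 8 rose, 0 fell and 2 were not called, with log2 changes from 0.08 to 0.48. Of the 19 tested members with a promoter but neither element, 12 rose, 1 fell and 6 were not called. Genes with and without an exact match thus both rose. Sdf2l1, which had the largest change, had no exact match to either element within this window. Derl3, listed at 0, held an ERSE. The promoters of Hspa5, Hyou1 and Hsp90b1 are given because all hold such elements while their changes differed. They span the 250 bases before the start (GRCr8), at chr3:38452766-38453015 on the + strand, chr8:53602632-53602881 on the + strand and chr7:23012294-23012543 on the - strand, with elements in capitals.
Hspa5 promoter: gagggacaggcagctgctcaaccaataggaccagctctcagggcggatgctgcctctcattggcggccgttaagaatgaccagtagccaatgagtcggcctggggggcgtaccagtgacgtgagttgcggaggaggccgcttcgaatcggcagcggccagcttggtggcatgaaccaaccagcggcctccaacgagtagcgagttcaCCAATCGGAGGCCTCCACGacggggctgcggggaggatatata
Hyou1 promoter: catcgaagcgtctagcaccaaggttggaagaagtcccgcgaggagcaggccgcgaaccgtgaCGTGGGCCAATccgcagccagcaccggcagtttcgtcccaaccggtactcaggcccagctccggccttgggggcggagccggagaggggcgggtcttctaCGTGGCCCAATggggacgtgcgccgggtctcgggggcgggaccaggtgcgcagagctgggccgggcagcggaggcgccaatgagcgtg
Hsp90b1 promoter: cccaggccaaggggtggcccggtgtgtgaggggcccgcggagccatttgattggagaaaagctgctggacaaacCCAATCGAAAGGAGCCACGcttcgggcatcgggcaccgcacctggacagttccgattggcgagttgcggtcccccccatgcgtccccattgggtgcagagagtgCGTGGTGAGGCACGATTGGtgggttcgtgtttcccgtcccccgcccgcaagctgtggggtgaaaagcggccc

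**Figure D2:**
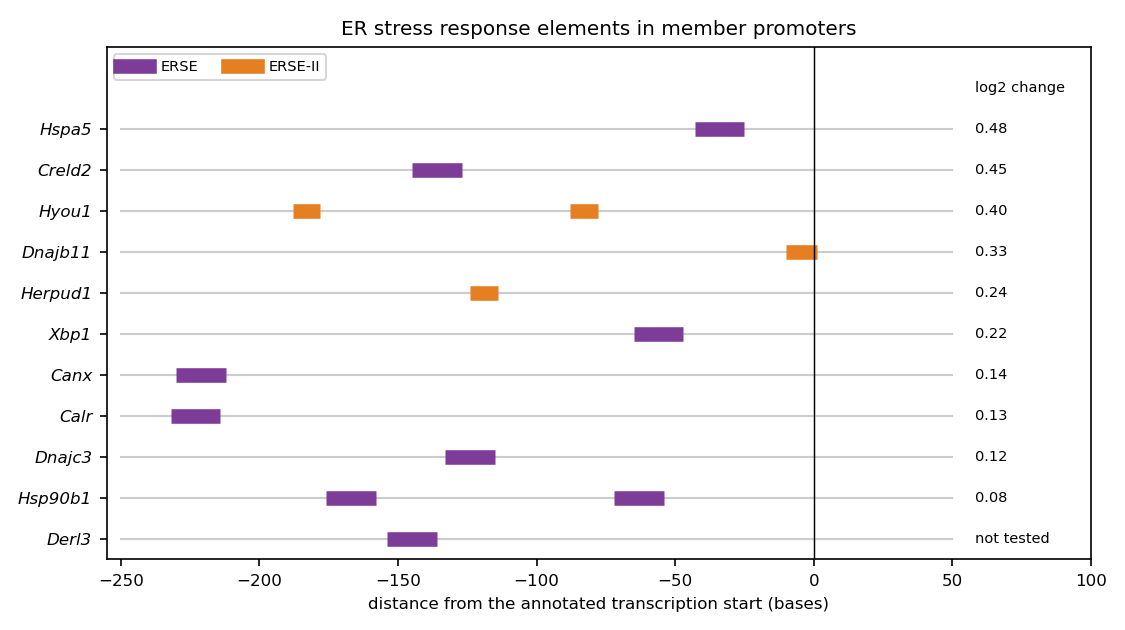
Positions of ERSE (purple) and ERSE-II (orange) matches in member promoters, in bases from the annotated start (0), with the log2 change of each gene at the right. The elements lie from 232 bases before the start in Calr to the start itself in Dnajb11, and genes with log2 changes of 0.48 (Hspa5) and 0.08 (Hsp90b1) both carry them.

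The genes of the sensors and of the factor XBP1 moved in different directions. Xbp1, whose spliced form drives chaperone and degradation genes, rose, as did the PERK gene Eif2ak3, while the IRE1 gene Ern1 fell and Atf6 was not called. Xbp1 (rn6 chr14:85753736-85758820) had 80.9, 80.8 and 83.3 RPKM in S487D, against 69.7, 67.2 and 72.8 RPKM in S487A (log2 change 0.22, SE 0.042, adjusted p = 0.00216). All S487D libraries were higher, but the table gives one value per gene, so spliced and unspliced Xbp1 mRNA could not be told apart. Eif2ak3 (rn6 chr4:98648507-98709695) had 7.46, 6.46 and 7.74 RPKM in S487D, against 6.31, 6.01 and 5.83 RPKM in S487A. Its lowest S487D library and its highest S487A library nearly met, and its log2 change of 0.22 was close to the threshold (SE 0.075, adjusted p = 0.0393, or 0.00252 to 0.13 over 14 alternatives). Without S487D replicate 1 or 3, or S487A replicate 2 or 3, the call was lost (adjusted p = 0.115, 0.13, 0.087 and 0.109).

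Ern1, the kinase and nuclease that splices Xbp1 mRNA (rn6 chr10:94588555-94681985), had 8.77, 8.59 and 9.36 RPKM in S487D, against 10.3, 11.2 and 10.4 RPKM in S487A (log2 change -0.23, SE 0.060, adjusted p = 0.0128). All S487D libraries were lower. The call was lost without S487A replicate 2 (adjusted p = 0.0506) and after quantile normalization (0.0563); the alternatives spanned 0.00167 to 0.0563. The Ern1 row overlaps another transcript. Atf6 (rn6 chr13:89053457-89242528) had 16.8, 16.4 and 16.4 RPKM in S487D, against 17.4, 17.7 and 17.5 RPKM in S487A. The groups did not overlap, yet the log2 change of -0.08 (95% interval -0.18 to 0.02) was not called (adjusted p = 0.186). Its row overlaps other transcripts as well. Ppp1r15a encodes the phosphatase subunit that reverses PERK signalling, and it averaged 23.8 ± 0.28 RPKM in S487D and 23.8 ± 1.7 RPKM in S487A (SD, n = 3 each, log2 change 0.01, 95% interval -0.12 to 0.13), with overlapping groups.

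Wfs1 fell the most of the ER genes. It encodes wolframin, an ER membrane protein whose loss causes Wolfram syndrome, a form of diabetes with loss of beta cells. Wfs1 (rn6 chr14:78640707-78665224) had 20.5, 19.9 and 21.4 RPKM in S487D, against 29.4, 31.7 and 29.9 RPKM in S487A (log2 change -0.54, SE 0.050, adjusted p = 2.66e-05). The groups were far apart. The 40 tested genes next to it on chromosome 14 had a median log2 change of -0.02, and 8 of them rose and 12 fell. Whether the change of neighbours had a part in its fall was not tested.

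**Figure D3:**
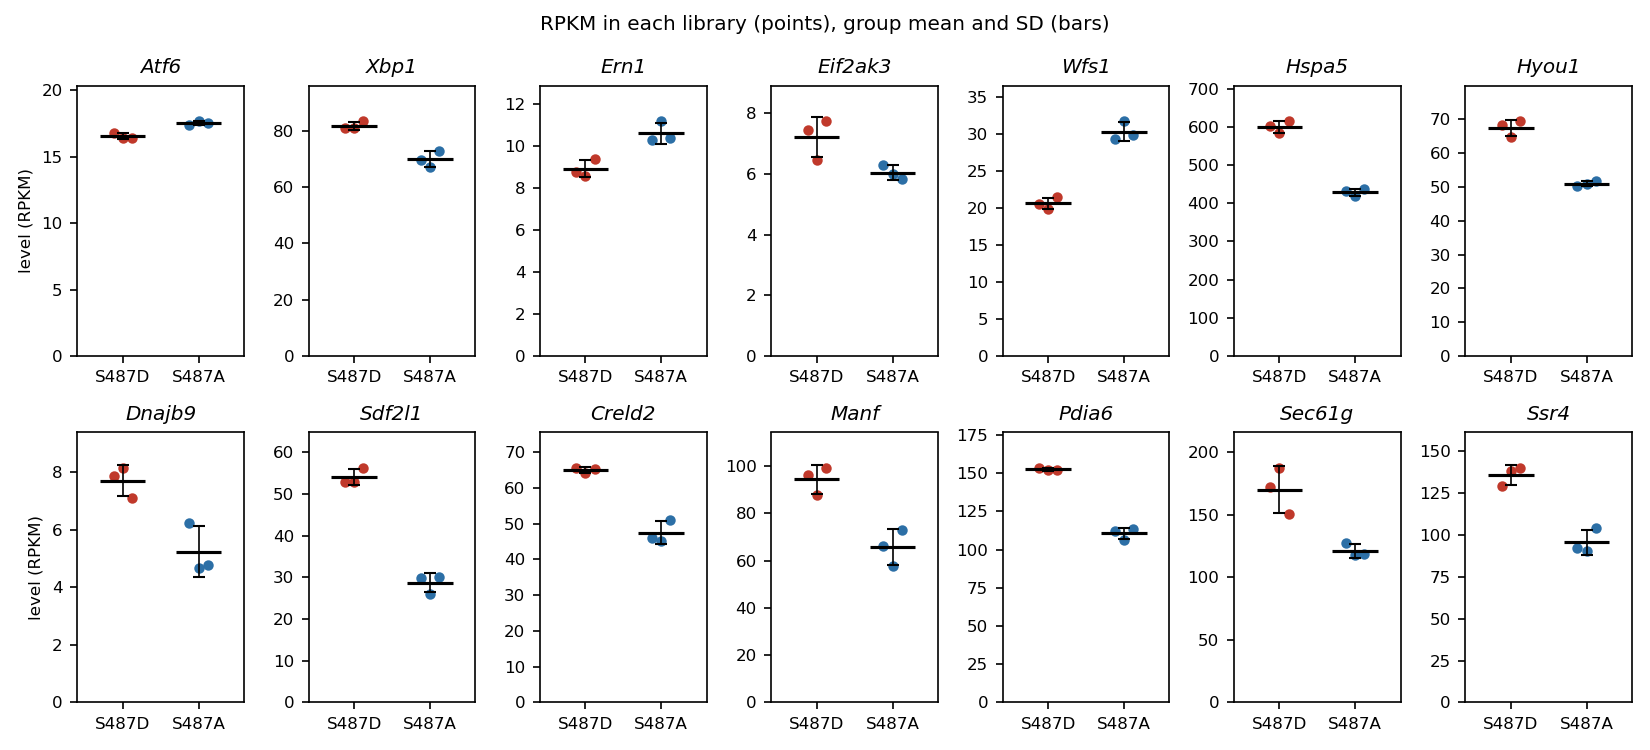
RPKM in each library (points) with group mean and SD (bars, n = 3), S487D left of S487A. The genes are the sensors, Xbp1, Hspa5 and the 10 called members with the largest change. The groups do not overlap in any panel; Sdf2l1 averages 54.0 RPKM in S487D and 28.7 RPKM in S487A, and Wfs1 is lower in S487D.

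BiP and its cofactors included the largest rises. Of 9 genes tested, 7 rose, 0 fell and 2 were not called, with a median log2 change of 0.45. Over this role and those that follow, 0 of 31 members fell by limma, by limma at an unadjusted p under 0.05, or by voom on recovered reads. Over all genes tested, 20.1% rose and 24.3% fell by limma, and 3027 of 12527 fell by voom. The share of all genes at the unadjusted threshold is not given here. Hspa5, the gene of BiP (rn6 chr3:13838304-13842763), had 604, 584 and 615 RPKM in S487D, against 431, 420 and 437 RPKM in S487A (log2 change 0.48, SE 0.038, adjusted p = 8.94e-06). Its lowest S487D library stood well above its highest S487A library. Sdf2l1, a partner of the BiP co-chaperone ERdj3 (rn6 chr11:88122271-88124513), had 52.9, 52.9 and 56.3 RPKM in S487D, against 30.0, 26.0 and 30.2 RPKM in S487A. That was the largest change among the ER genes, 1.85-fold (log2 change 0.89, SE 0.061, adjusted p = 3.51e-06).

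Manf encodes a secreted survival factor that binds BiP and supports beta cells in mice. It (rn6 chr8:115623170-115626408) had 96.0, 87.6 and 99.3 RPKM in S487D, against 66.2, 57.9 and 73.1 RPKM in S487A (log2 change 0.52, SE 0.080, adjusted p = 6.43e-04). Its libraries scattered more than those of BiP, yet the groups stayed apart. Creld2, a stress-induced ER protein (rn6 chr7:129812757-129819636), had 65.6, 64.0 and 65.4 RPKM in S487D, against 46.0, 45.1 and 51.1 RPKM in S487A (log2 change 0.45, adjusted p = 9.66e-05). Hyou1 helps BiP to exchange nucleotide and shares the ERSE-II shown above. Hyou1 (rn6 chr8:48699717-48711912) had 68.3, 64.7 and 69.5 RPKM in S487D, against 50.2, 50.9 and 51.6 RPKM in S487A (log2 change 0.40, adjusted p = 5.45e-05).

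The J-domain co-chaperones, which deliver clients to BiP and stimulate its ATPase, were not alike. Dnajb9 (rn6 chr6:64165913-64170122) also restrains IRE1 and is a classical target of spliced XBP1. It had 7.85, 8.15 and 7.10 RPKM in S487D, against 6.24, 4.66 and 4.78 RPKM in S487A (log2 change 0.49, 95% interval 0.26 to 0.71, adjusted p = 0.0034). It had the fewest reads of the tested members, 102 in the lowest library, and the widest error among those that rose. Dnajb11, the gene of ERdj3, averaged 85.6 ± 2.1 RPKM in S487D and 68.0 ± 2.1 RPKM in S487A (SD, n = 3 each, log2 change 0.33, adjusted p = 1.76e-04). Dnajc3, which also inhibits PERK, averaged 24.6 ± 2.6 RPKM in S487D and 22.6 ± 0.96 RPKM in S487A, and its groups overlapped (log2 change 0.12, 95% interval -0.05 to 0.28, adjusted p = 0.228). It was called without S487D replicate 2 (adjusted p = 0.0206; the alternatives spanned 0.0206 to 0.543), and its row overlaps another transcript.

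Hsp90b1, the HSP90 chaperone of the ER, whose promoter holds ERSEs, was not called in the values as deposited. It had 342, 340 and 340 RPKM in S487D, against 333, 310 and 324 RPKM in S487A (log2 change 0.08, 95% interval -0.01 to 0.17, adjusted p = 0.126). The upper bound of its interval lay below the lower bound of BiP's, which was 0.40, though the difference between these genes was not tested. It was called after median centring (adjusted p = 0.0123) and with voom on recovered reads (0.00881), with log2 changes of 0.14 and 0.11, and its adjusted p reached 0.91 in another alternative.

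Of the protein disulfide isomerases, which form and rearrange disulfide bonds such as those of proinsulin, 3 of 4 rose and 0 fell. The shares over all genes were 20.1% risen and 24.3% fallen. Pdia6, which also binds IRE1 (rn6 chr6:42568269-42585654), had 154, 152 and 152 RPKM in S487D, against 112, 107 and 113 RPKM in S487A (log2 change 0.46, SE 0.038, adjusted p = 1.17e-05). The main isomerase gene P4hb averaged 499 ± 6.4 RPKM in S487D and 402 ± 16.9 RPKM in S487A (SD, n = 3 each, log2 change 0.31, adjusted p = 2.46e-04). Pdia4 had a log2 change of 0.22 (adjusted p = 0.00123). Pdia3 works with the lectin chaperones on glycoproteins. Its libraries ranged from 417 to 440 RPKM in S487D and from 379 to 417 RPKM in S487A, and its log2 change of 0.10 was not called in the values as deposited (adjusted p = 0.0937). It was called after median centring (0.011), with voom on recovered reads (0.00352) and without S487A replicate 1 (0.0297); the alternatives spanned 0.00352 to 0.965. Its row overlaps another gene.

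The lectin chaperones, which hold glycoproteins during folding, rose by small amounts in the values as deposited. Calr, the gene of calreticulin, averaged 698 ± 9.1 RPKM in S487D and 637 ± 7.8 RPKM in S487A (log2 change 0.13, adjusted p = 0.0138), the highest level of the ER genes. Canx, calnexin, averaged 160 ± 4.4 RPKM in S487D and 145 ± 4.8 RPKM in S487A (log2 change 0.14, adjusted p = 0.0205), in a row that overlaps another gene. Both calls were lost after quantile normalization, where Calr had a log2 change of -0.03 (adjusted p = 0.482) and Canx of 0.06 (0.241). The Calr call was also lost without S487D replicate 2 (0.0626), and the Canx call without S487D replicate 1 (0.0874) or S487A replicate 2 (0.0763). Over the alternatives, adjusted p ran from 1.47e-04 to 0.482 for Calr and from 1.97e-04 to 0.241 for Canx.

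In ER-associated degradation, 5 of 7 tested genes rose, 0 fell and 2 were not called, with a median log2 change of 0.20. Over all genes, 20.1% rose and 24.3% fell. Edem1, which takes misfolded glycoproteins out of the folding cycle, averaged 28.2 ± 2.1 RPKM in S487D and 22.5 ± 0.59 RPKM in S487A (log2 change 0.31, SE 0.059, adjusted p = 0.00202). Its relatives changed less in value, Edem2 with a log2 change of 0.10 (adjusted p = 0.0911) and Edem3 with -0.01 (95% interval -0.13 to 0.10). The interval of Edem1, 0.18 to 0.45, lay above that of Edem3, though their difference was not tested. Edem2 was called after median centring (adjusted p = 0.019) and with voom on recovered reads (0.0498); the alternatives spanned 0.019 to 0.244. Os9, a lectin that hands glycoproteins to the ubiquitin ligase, averaged 46.9 ± 2.6 RPKM in S487D and 37.9 ± 0.79 RPKM in S487A (log2 change 0.30, adjusted p = 9.49e-04). Sel1l, the adaptor of that ligase, rose by a log2 change of 0.20 (adjusted p = 0.00716), and Herpud1, its scaffold, by 0.24 (0.0093). Derl1, a derlin of the retrotranslocation channel, averaged 47.1 ± 1.6 RPKM in S487D and 42.7 ± 0.63 RPKM in S487A (log2 change 0.14, adjusted p = 0.0256). The Derl1 call was lost on leaving out any library but S487D replicate 2, with adjusted p = 0.0921 and 0.0799 without S487D replicates 1 and 3 and 0.0642, 0.0514 and 0.0508 without S487A replicates 1, 2 and 3; the alternatives spanned 0.00336 to 0.0921.

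Among translocation genes, the 6 listed members of the Sec61 channel and of the translocon-associated TRAP complex rose, beside 20.1% of all genes. Ssr3, a TRAP gene that is not among the 39, fell (log2 change -0.75, adjusted p = 5.98e-06). The 40 tested genes next to Ssr3 on chromosome 2 had a median log2 change of -0.72, and 0 of them rose and 30 fell. Whether the change of neighbours had a part in its fall was not tested. Of 3 signal peptidase genes, 0 were called by limma, 1 passed at an unadjusted p under 0.05 and 1 was called with voom on recovered reads. Over all genes, 44.4% were called by limma and 49.5% with voom. The difference between the channel, TRAP and signal peptidase genes was not tested. Ssr4, a TRAP subunit (rn6 chrX:156995763-156999709), had 129, 138 and 140 RPKM in S487D, against 92.1, 90.5 and 104 RPKM in S487A (log2 change 0.50, SE 0.058, adjusted p = 1.07e-04). Sec61g, a small subunit of the channel (rn6 chr14:99774589-99780964), had 172, 187 and 150 RPKM in S487D, against 128, 118 and 118 RPKM in S487A (log2 change 0.48, SE 0.073, adjusted p = 6.22e-04). Sec61g varied the most among its S487D libraries, but all of these were above S487A. The other channel subunits rose less in value, Sec61b by a log2 change of 0.35 and the pore-forming Sec61a1 by 0.27 (adjusted p = 4.43e-04 and 4.49e-04). The TRAP genes Ssr1 and Ssr2 rose by log2 changes of 0.29 and 0.22 (adjusted p = 0.00311 and 0.00128). The signal peptidase genes Spcs1, Spcs2 and Spcs3 had log2 changes of 0.05 (95% interval -0.05 to 0.15), 0.10 (0.01 to 0.19, adjusted p = 0.0777) and 0.04 (-0.13 to 0.20). Spcs2 was called after median centring (adjusted p = 0.00835) and with voom on recovered reads (0.0119); the alternatives spanned 0.00835 to 0.253.

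In some stretches of chromosomes, neighbouring genes moved together. Of the 40 tested genes next to Sec62 on chromosome 2, 33 fell and 1 rose. Next to Sar1a on chromosome 20, 36 of 40 fell and 0 rose. Each member was therefore set beside the tested genes nearest to it. Up to 20 were taken on each side, 40 in all, or 36 for Dnajc3 and Sdf2l1. The neighbours' median log2 change ran from -0.15 to 0.14 over the 37 tested members. Sel1l and Edem1 rose among neighbours with medians of -0.15 and -0.14, and Xbp1 rose among neighbours with a median of 0.14.

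Other genes of the same pathways were taken from 6 further lists. Of 117 tested, 33 rose (28.2%), 17 fell (14.5%) and 67 were not called, beside 20.1% risen and 24.3% fallen over all genes. Their median log2 change was 0.08. Among 24 further genes of ER-associated degradation, 23 were tested, 7 rose and 0 fell, also 0 at an unadjusted p under 0.05 and with voom on recovered reads. With voom, 3027 of all 12527 genes fell. Vimp, the selenoprotein that recruits the p97 ATPase to the ER membrane, averaged 42.9 ± 0.67 RPKM in S487D and 30.1 ± 0.82 RPKM in S487A (log2 change 0.50, adjusted p = 1.26e-05). Ufd1l, a cofactor of that ATPase, had a log2 change of 0.37 (adjusted p = 1.84e-04). The number that rose in this list was 13 after median centring. Over all genes, 3512 of 12527 rose after median centring, against 2523 in the main test.

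Of 22 genes of COPII vesicles, which carry cargo from the ER to the Golgi, 9 rose (40.9%) and 1 fell (4.55%). After median centring 14 rose. Over all genes 20.1% rose and 24.3% fell, and the number risen was 3512 after median centring against 2523 in the main test. Sec31a, of the outer coat, averaged 36.7 ± 2.3 RPKM in S487D and 18.7 ± 0.55 RPKM in S487A (log2 change 0.94, adjusted p = 1.36e-06), among neighbours with a median of 0.43. The cargo receptor gene Tmed2 had a log2 change of 0.21 (adjusted p = 0.00138). Sar1a, the GTPase that starts coat assembly, had a log2 change of -0.37 (adjusted p = 7.42e-05), among neighbours with a median of -0.52 and in a row that overlaps another transcript. Whether the change of neighbours had a part in these values was not tested.

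Of 22 other genes of translocation, signal recognition and membrane insertion, 7 rose (31.8%) and 3 fell (13.6%), beside 20.1% and 24.3% over all genes. Without S487D replicate 1, 4 of the list rose, and 1940 of all genes rose against 2523 in the main test. Srpr, the receptor of the signal recognition particle, and Tram1, a membrane protein beside the channel, had log2 changes of 0.31 and 0.21 (adjusted p = 2.09e-04 and 0.00213). Sec62, which serves short secretory proteins after their synthesis, averaged 12.7 ± 0.76 RPKM in S487D and 25.8 ± 0.86 RPKM in S487A (log2 change -0.97, adjusted p = 1.26e-06). The TRAP gene Ssr3 averaged 29.0 ± 1.4 RPKM in S487D and 49.6 ± 3.0 RPKM in S487A. The genes next to Sec62 and Ssr3 had medians of -0.75 and -0.72.

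Among 22 tested genes of further folding enzymes, 4 rose (18.2%), 5 fell (22.7%) and 13 were not called, shares close to those over all genes. The prolyl isomerase genes Ppib and Fkbp2 had log2 changes of 0.38 and 0.40 (adjusted p = 3.95e-05 and 9.79e-05). Ero1l, an oxidase that recharges disulfide isomerases, averaged 17.4 ± 0.38 RPKM in S487D and 26.6 ± 1.5 RPKM in S487A (log2 change -0.59, adjusted p = 2.12e-05). It fell while 3 of the 4 isomerases rose, and its neighbours had a median of 0.01. Its paralogue Ero1lb was higher in value in S487D but not called (log2 change 0.19, adjusted p = 0.0821). The groups of Ero1lb overlapped, and its row overlaps another transcript. Dnajb12, a J protein of the ER membrane, had a log2 change of -0.51 (adjusted p = 1.93e-05) among neighbours with a median of -0.43. Of 12 subunits of oligosaccharyltransferase, which glycosylates new proteins, 3 rose (25%) and 2 fell (16.7%), beside 20.1% and 24.3% over all genes. The risen genes were 5 after median centring or with voom on recovered reads. Over all genes, 3512 and 3168 rose under these alternatives, against 2523 in the main test. After median centring and without S487D replicate 1 or S487A replicate 2, 1 gene of this list fell. Rpn2 and Ostc had log2 changes of 0.29 and 0.33 (adjusted p = 2.81e-04 and 4.32e-04), and Magt1 and Ost4 of -0.24 and -0.16 (0.0121 and 0.0152).

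The PERK, ATF4 and CHOP arm, which governs amino acid supply and cell death under stress, was tested in 16 genes, of which 3 rose (18.8%), 6 fell (37.5%) and 7 were not called, beside 20.1% risen and 24.3% fallen over all genes. The list median was a log2 change of -0.12. Of the genes that name the arm, Atf4 was not called (log2 change 0.09, adjusted p = 0.204), with overlapping groups. The CHOP gene Ddit3 rose (log2 change 0.18, adjusted p = 0.0275), in a row that overlaps other genes. Atf5 averaged 254 ± 7.0 RPKM in S487D and 381 ± 13.7 RPKM in S487A (log2 change -0.58, adjusted p = 4.43e-06), in a row that overlaps other genes. The lipoprotein receptor gene Vldlr had a log2 change of -0.56 (adjusted p = 2.65e-05). Slc3a2, the heavy chain of amino acid transporters, and the transcription factor gene Cebpb had log2 changes of 0.45 and 0.43 (adjusted p = 1.58e-05 and 1.08e-04). The difference between this arm and the chaperones was not tested.

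**Figure D4:**
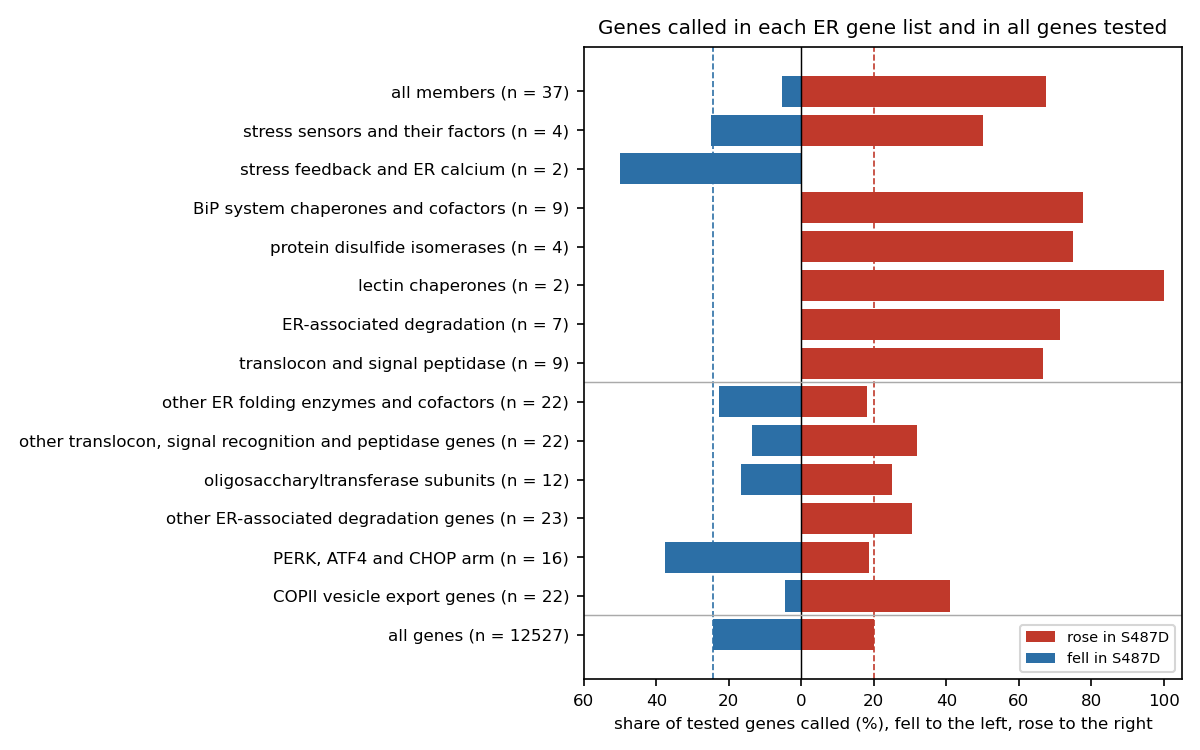
Share of tested genes that rose (red, right) or fell (blue, left) in S487D, by role of the ER genes (above the upper line), in 6 further lists and in all genes tested, with n the genes tested. Dashed lines mark the shares over all genes, 20.1% risen and 24.3% fallen; 67.6% of the ER genes rose and 5.41% fell.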

How the data were processed

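Total RNA of 6 INS-1 samples, 3 labelled S487D and 3 labelled S487A, was extracted with Trizol and mRNA libraries were prepared with a TruSeq RNA kit, per the labels' protocols. This kit leaves strand unmarked, and reads of overlapping genes are therefore not separable. Tools named in the submitters' processing notes are bcl2fastq 2.17, cutadapt and TopHat2 2.0.13, with rn6 as the build. The read counter, annotation and filters were not given in the sources used here. As RPKM, the authors deposited values per gene and library with rn6 position and gene length, per the file headers. Multiplied by gene length, 100% of values up to 2000 reads came within 0.05 of a whole read, so reads per gene were recovered for an alternative test.

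Groups and replicate numbers came from sample titles. No 2 libraries of a group agreed within sampling noise (their median chi-square was 1.36 to 1.88 times that of sampling alone), and each was counted as a replicate. A gene was tested where 3 or more libraries reached 1 RPKM. The test was limma 3.58.1 in R 4.3.3, two-sided, on log2(RPKM + 1) with moderated variances that follow an intensity trend. P-values were adjusted by Benjamini-Hochberg over every tested gene, and an adjusted p under 0.05 counted as a call. The pseudocount of 1 understates the change of low genes. The model was also run on simulated reads in which few genes were changed. The outcome of that run is not given here. It cannot show how the model performs where 44.4% of genes are called. The members and lists were chosen with earlier results of these data known, so their counts are descriptions and no list was tested as a whole. Values in every library are given for Hspa5, Xbp1, the sensors and the 10 called members with the largest change. They are also given for Hsp90b1, added after its values were seen. From each further list, up to 2 called genes per direction with the smallest p are named. Atf4, Ddit3 and Ero1lb were added after their values were seen. Older and newer symbols were both looked up. ER retention signals of the proteins were not analysed here. Python 3.11.15 with numpy 2.4.6, pandas 2.3.3 and scipy 1.17.1 was used for tables.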

Additional observations from a re-analysis of the deposited data

How the results depend on the processing

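Of 27 called members, 22 kept their call and direction under all 14 alternatives (a replicate block, voom on recovered reads, pseudocount 0.1, median centring, no filter, quantile normalization, a filter at RPKM 5, no intensity trend, and each library left out). The others were Ern1, Eif2ak3, Calr, Canx and Derl1. Besides the values given with these genes, Eif2ak3 (adjusted p = 0.0871) and Calr (0.0529) lost their calls without a filter on low values, and Canx (0.0607) and Derl1 (0.0567) without the intensity trend. Calr turned to a log2 change of -0.029 after quantile normalization, uncalled. Risen members numbered 23 to 29 under the alternatives that kept all libraries and 22 to 25 with 1 library left out. After median centring and with voom, where 29 members rose, 3512 and 3168 of all genes rose, against 2523 in the main test. Fallen members numbered 1 after quantile normalization and 1 to 2 with 1 library left out. The members' median log2 change was 0.28 after median centring and 0.20 to 0.24 with 1 library left out. All genes changed numbered 4650 to 4985 with 1 library left out, against 5564. The share of risen genes among all calls was 45.3% in the main test, 58.9% with median centring and 55.4% with quantile normalization. Of 168 counts in the further lists, 160 stayed within 1.5 times. Same-numbered libraries did not deviate together (r from -0.06 to 0.01 over genes), and 0 of 3 S487D libraries correlated best with its own number. These values gave no sign of pairing by number, but they cannot show that same-numbered libraries were handled apart. With the replicate block, 23 members rose and 2 fell and 5335 genes were called in all; Calr (adjusted p = 0.0723) and Derl1 (0.0504) lost their calls. The cause of these shifts was not tested. With 3 libraries a group, the smallest log2 change called among the members was 0.13 (Calr).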

Other observations

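Outside the ER genes described above, 13 tested genes had an ERSE or ERSE-II in the same promoter window, of which 3 rose, 1 fell and 9 were not called (median log2 change 0.03). Of 8457 tested genes outside the list with neither element, 21.4% rose and 24.8% fell. Those with an ERSE that were called were Birc5, which encodes the mitotic and survival protein survivin (log2 change 0.27, adjusted p = 4.02e-04), Zfand2a, a stress-induced zinc finger gene (0.22, adjusted p = 0.0104), and Ppm1l, a protein phosphatase gene (-0.31, adjusted p = 0.0107). These 3 genes were named after their values were seen. The core ACGTG, which is bound by spliced XBP1 and by many other basic leucine zipper and helix-loop-helix factors and can overlap the end of an ERSE, was found on either strand in 13 of 31 member promoters (41.9%), in 26.2% of promoters of tested genes and in 19.7% of all promoters.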
